A study of Mus musculus with 6 samples.

Results

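In mouse embryonic stem cells (mESCs) sorted into G1 and G2/M, 1399 of 344780 genomic windows on chromosomes 1 to 19 carried at least 20 percentage points more CpG methylation in replicate 3 than in the mean of replicates 1 and 2, in the G1 libraries and again in the G2/M libraries. Most windows hold about 100 CpG cytosines, counting both strands, and a few hold many more. The 1813 windows in which replicate 3 was lower by at least 5 percentage points in both phases served as the comparison. The deposited percentages themselves chose both sets, so the gap between replicate 3 and the other replicates is given here as a description, with no test.

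Methylation was measured with EM-seq, in which enzymes convert unmodified cytosines so that methylated ones are read as cytosine. The cells were E14TG2a, a male mESC line of the 129/Ola strain, grown on gelatin in serum with LIF, the cytokine that keeps mESCs pluripotent. All 6 libraries came from cells labelled with EdU and sorted on EdU and DNA content, with 3 replicates of G1 and 3 of G2/M, so no group was without EdU or without sorting. The labels give every library the same passage range, from 5 to 28, and do not say what a replicate number stands for, although the study made these libraries as biological triplicates and calls its replicates matched. The table holds percentages without read counts, so the depth behind each value is unknown and no counting error could be given. The study asked for only a minority of a window's CpGs to be observed in each library, so a value can rest on few reads.

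Methylation of CpGs in mammals is copied onto new DNA after replication by DNMT1 together with UHRF1, placed anew by DNMT3A and DNMT3B, and removed through TET enzymes or by failed copying. In mESCs kept in serum most of the genome outside CpG islands is methylated, and the level of a culture can drift and differ from cell to cell. A window value is an average over many CpGs, DNA molecules and cells, so an intermediate value may come from CpGs, alleles or cells that differ.

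The replicate 3 libraries were higher over most of the genome. The median autosomal window was at 66.8%, 64.2% and 73.5% in G1 replicates 1, 2 and 3, and at 65.4%, 63.3% and 72.6% in G2/M. The median excess of replicate 3 was thus 7.24 percentage points in G1 and 7.56 in G2/M, so the chosen windows lay about as far above the typical excess as the comparison windows lay below it. In the chosen windows the medians were 53.0%, 50.5% and 76.8% in G1, while in G2/M they were 53.4%, 52.2% and 77.5%. Their levels in replicates 1 and 2 were below the autosomal median, and their levels in replicate 3 were slightly above it. In the comparison windows the medians were 56.8%, 54.7% and 44.7% in G1, while in G2/M they were 53.9%, 53.6% and 43.0%. The median excess was 23.5 and 23.2 percentage points in the chosen windows, and -8.84 and -8.50 in the comparison windows. With each library first centred on its median, 60 windows passed the same threshold. Leaving out replicate 1 gave 2383 windows for G1 and 2310 for G2/M, and leaving out replicate 2 gave 1774 and 1838.

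**Figure D1:**
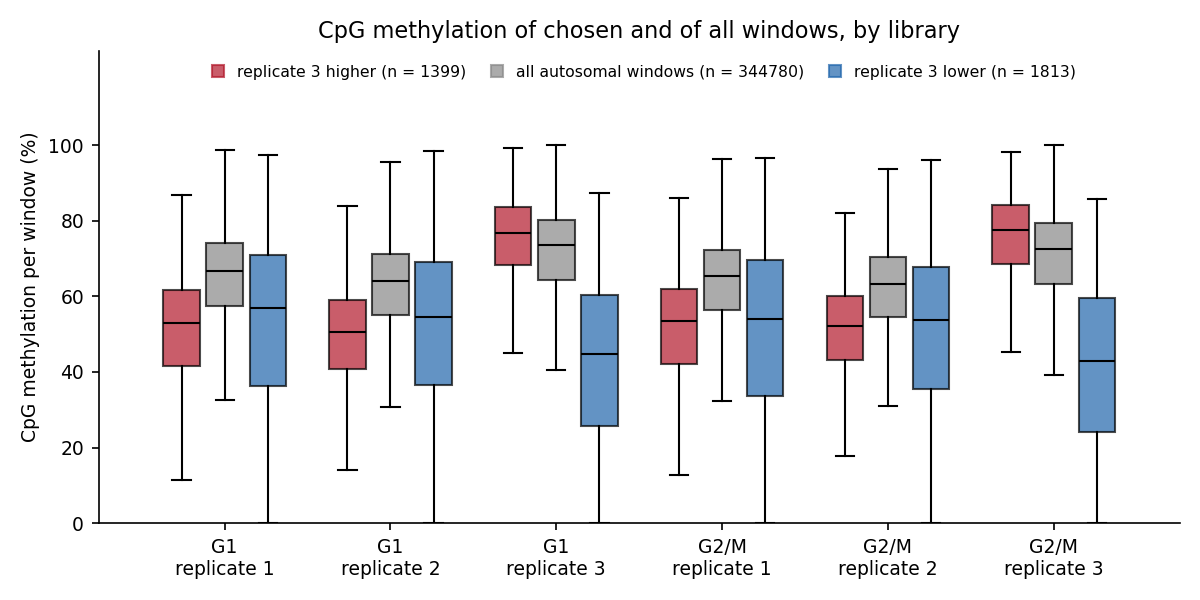
CpG methylation per window (y axis, %) in each of the 6 libraries (x axis) for windows where replicate 3 was higher (red, n = 1399), all autosomal windows (grey, n = 344780) and windows where it was lower (blue, n = 1813); boxes span the quartiles with the median as a line, whiskers reach to the last value within 1.5 times the box, and values beyond are not drawn. The red boxes rise from medians of 50.5% to 53.4% in replicates 1 and 2 to 76.8% and 77.5% in replicate 3, a gap that chose these windows.

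Stretches of 8 of these windows are shown to let a reader see the kind of CpGs behind the values. Each is the 200 bases with most CpGs that lie outside annotated exons and outside repeats, taken from the forward strand of the RefSeq GRCm38 genome and written 5′ to 3′ with the CpGs in capitals. The first 4 come from the windows with the largest excess of replicate 3. The window with the largest excess of all, upstream of Tjp1, had no such stretch with at least 5 CpGs.
Near Smad9, chr3:54754639-54754838: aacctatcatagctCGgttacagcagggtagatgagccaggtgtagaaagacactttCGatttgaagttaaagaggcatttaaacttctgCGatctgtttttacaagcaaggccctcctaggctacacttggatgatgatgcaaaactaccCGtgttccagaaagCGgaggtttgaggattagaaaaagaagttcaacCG
Intron of Pde4a, chr9:21201574-21201773: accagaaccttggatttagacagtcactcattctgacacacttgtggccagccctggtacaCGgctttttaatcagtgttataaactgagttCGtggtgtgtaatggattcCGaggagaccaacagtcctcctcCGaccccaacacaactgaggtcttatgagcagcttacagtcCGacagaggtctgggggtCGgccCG
Near Gm12184, chr11:48821679-48821878: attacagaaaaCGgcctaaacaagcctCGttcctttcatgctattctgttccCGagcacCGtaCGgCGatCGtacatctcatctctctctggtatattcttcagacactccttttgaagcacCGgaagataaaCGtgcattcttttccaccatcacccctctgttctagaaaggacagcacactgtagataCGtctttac
Upstream of Slc4a4, chr5:88886546-88886745: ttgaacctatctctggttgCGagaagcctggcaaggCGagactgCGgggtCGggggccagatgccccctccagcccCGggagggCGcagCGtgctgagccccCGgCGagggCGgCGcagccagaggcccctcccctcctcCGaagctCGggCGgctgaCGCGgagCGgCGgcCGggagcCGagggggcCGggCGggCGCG
The next 2 come from windows with the largest deficit of replicate 3, for contrast.
Rarres1, chr3:67515524-67515723: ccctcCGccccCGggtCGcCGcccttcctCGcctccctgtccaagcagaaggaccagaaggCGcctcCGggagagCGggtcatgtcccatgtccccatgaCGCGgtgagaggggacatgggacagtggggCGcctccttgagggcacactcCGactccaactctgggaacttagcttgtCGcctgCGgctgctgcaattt
Intron of Chit1, chr1:134114856-134115055: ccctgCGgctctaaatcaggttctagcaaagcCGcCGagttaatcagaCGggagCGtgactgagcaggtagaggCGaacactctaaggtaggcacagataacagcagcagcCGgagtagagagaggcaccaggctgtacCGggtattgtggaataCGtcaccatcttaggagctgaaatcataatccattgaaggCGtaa
The last 2 come from the imprinted Peg3 and Usp29 window, where replicate 3 was lower, and from the Hoxb3 window, where it was higher.
Peg3 and Usp29, chr7:6729976-6730175: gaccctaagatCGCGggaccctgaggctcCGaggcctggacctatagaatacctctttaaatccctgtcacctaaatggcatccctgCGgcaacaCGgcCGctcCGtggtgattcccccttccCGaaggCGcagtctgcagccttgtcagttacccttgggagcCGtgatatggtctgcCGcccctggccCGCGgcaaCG
Hoxb3, chr11:96324975-96325174: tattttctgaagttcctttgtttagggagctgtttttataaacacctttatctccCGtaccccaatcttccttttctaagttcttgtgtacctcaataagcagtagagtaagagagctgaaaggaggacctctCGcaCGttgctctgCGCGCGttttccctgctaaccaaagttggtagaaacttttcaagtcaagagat
The stretches hold 6, 7, 10 and 24 CpGs in the windows higher in replicate 3, 14 and 10 in those lower in it, 14 at Peg3 and 6 at Hoxb3. The Slc4a4 stretch has the most of them.

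The window upstream of Tjp1, which encodes a scaffold protein of tight junctions, had the largest excess. It spans chromosome 7 from 65527837 to 65529685, and its centre lies 980 bp before the start of a Tjp1 transcript that is not annotated as coding. It was at 40.1%, 41.9% and 85.0% in G1 replicates 1, 2 and 3. In G2/M it was at 29.0%, 29.7% and 78%. Replicates 1 and 2 lay within 2 percentage points of each other in each phase, and both replicate 3 libraries lay far above all others. Repeats covered 35.9% of the window's bases.

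The intergenic window near Smad9, a receptor-regulated SMAD of the BMP pathway, spans chromosome 3 from 54753283 to 54755550. It was at 31.1%, 43.8% and 78.3% in G1 and at 38.2%, 33.1% and 74.8% in G2/M. The window within an intron of Pde4a, a cAMP phosphodiesterase gene, spans chromosome 9 from 21201377 to 21204521. It was at 50.6%, 56.7% and 93.3% in G1 and at 46.8%, 43.2% and 82.3% in G2/M. In both windows replicates 1 and 2 changed order between the phases, while replicate 3 was highest in each.

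The intergenic window on chromosome 11 from 48819627 to 48823548, 3759 bp from Gm12184, was at 27.3%, 43.5% and 76.5% in G1 and at 43.3%, 33.3% and 75% in G2/M. The window at the start of Slc4a4, a sodium bicarbonate cotransporter gene, spans chromosome 5 from 88884266 to 88886827. It was at 18.8%, 30.1% and 60.3% in G1 and at 21.6%, 33.9% and 66.7% in G2/M. Here replicate 2 exceeded replicate 1 in both phases, and replicate 3 exceeded both by more than either differed from the other. In all 5 windows the 2 replicate 3 libraries lay above the 4 others without overlap.

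Promoters were taken as 1000 bp before to 100 bp after a transcript's start. Of the 1399 windows, 60 (4.29%) had their centre at a promoter of a protein-coding gene, counting any of its transcripts. The share was 3.43% in all autosomal windows and 8.60% in the comparison windows. For promoters of protein-coding transcripts alone it was 2.001% in the chosen windows, 2.173% in all autosomal windows and 5.957% in the comparison windows. Beside the Tjp1 window, the largest excesses among the 60 windows were at Lima1, Magohb, Cfap46 and Abca2. The window at Lima1, which encodes an actin-binding protein, was at 55.4%, 37.7% and 82.1% in G1 and at 45.4%, 59.7% and 89.3% in G2/M. The window at Magohb, a component of the exon junction complex, was at 25.5%, 18.0% and 62.2% in G1 and at 24.7%, 22.7% and 57.8% in G2/M. The Magohb window also covers a processed pseudogene, Gm44958, and was the least methylated of these promoter windows in replicates 1 and 2. The window at Cfap46, a gene of cilia and flagella, was at 52.2%, 40% and 75.6% in G1 and at 68.0%, 55.0% and 92.3% in G2/M. The window at Abca2, a lipid transporter gene, was at 50.6%, 57.4% and 85.8% in G1 and at 75%, 58% and 95.7% in G2/M. At Cfap46 and Abca2 every replicate was higher in G2/M than in G1.

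**Figure D2:**
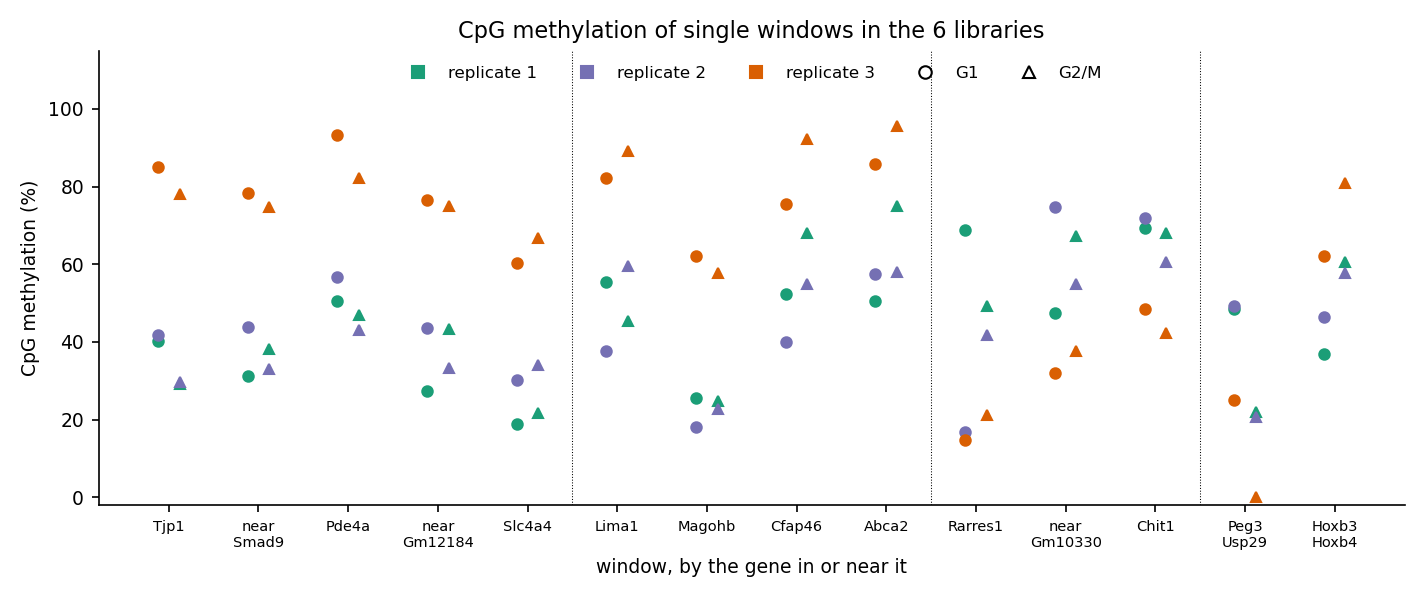
CpG methylation (y axis, %) of 14 single windows (x axis, by the gene they overlap or lie near) in G1 (circles) and G2/M (triangles), coloured by replicate; dotted lines part the 5 largest excesses, further promoter windows, the 3 largest deficits and 2 windows at genes of the lists. Replicate 3 (orange) is the highest point in each phase in the first 9 windows and at Hoxb3, and the lowest in each phase at the 3 deficit windows and at Peg3 and Usp29.

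The threshold cut through a continuous range of values. Just above it, with a smaller excess of 20.0 percentage points, were windows at the start of Prdm8 and within introns of Phf21a and Malrd1. Just below it, with 20.0 percentage points after rounding as well, were windows within introns of Snap23, Nr5a2 and Lipc. The Prdm8 window was at 54.4%, 59.2% and 78.1% in G1 and the Snap23 window, outside the rule, at 62.4%, 53.5% and 79.3%.

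Few windows with a large excess in one phase had it in the other. In G1 18719 windows (5.43%) passed 20 percentage points and in G2/M 17009 (4.93%), and 1399 (0.406%) did so in both. Of the windows past the threshold in G2/M, 8.23% were also past it in G1, and of those past it in G1, 7.47% were also past it in G2/M. The chosen windows are thus a small share of the windows with a large excess in either phase alone. For the comparison, 6.07% of windows were lower by 5 percentage points in G1, 5.19% in G2/M and 0.526% in both.

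Across all 344780 autosomal windows, the excess of replicate 3 in G1 and that in G2/M correlated with a Pearson's r of 0.0567 and a Spearman's rho of 0.0610. Over blocks of 10 neighbouring windows r was 0.127 (34487 blocks), and over blocks of 100 it was 0.276 (3458 blocks). These are correlations across windows of the same 6 libraries, which are not independent, and carry no p. The likeness of the phases was thus weak for single windows and larger for averages over long stretches.

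**Figure D3:**
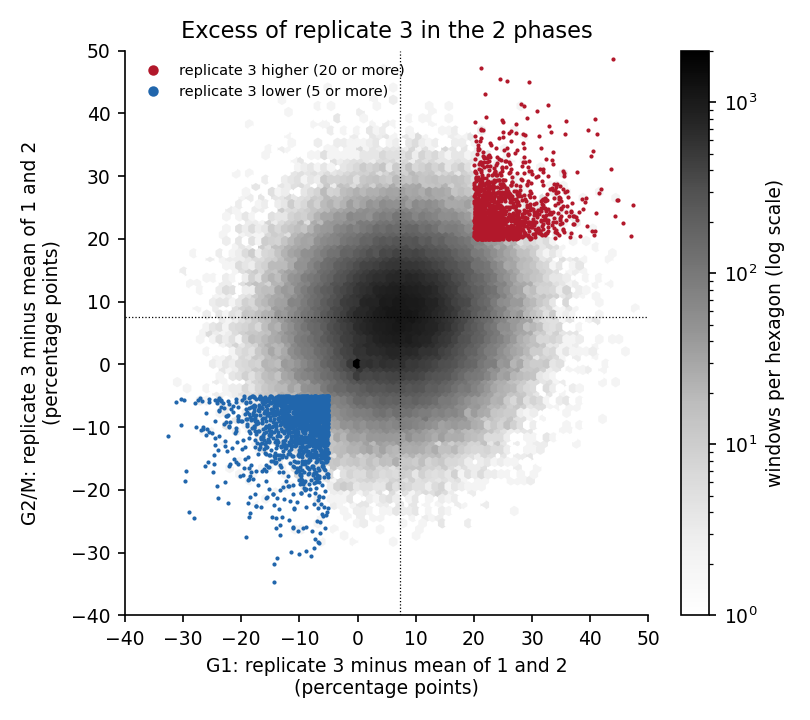
Excess of replicate 3 over the mean of replicates 1 and 2 in G1 (x axis) and G2/M (y axis), both in percentage points, for all autosomal windows (grey, log colour scale); red points are the 1399 chosen windows, blue points the 1813 comparison windows, and dotted lines mark the medians of 7.24 and 7.56. The cloud is nearly round, with r of 0.0567, and the chosen windows are its upper right corner.

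Both replicate 3 libraries were above all 4 others in 1382 of the 1399 windows, where the rule leaves little else possible. Over all windows of the table this held for 35.4%. Both were below all 4 others in 777 of the 1813 comparison windows (42.9%), against 0.477% of all windows. In the remaining 17 chosen windows at least 1 library of replicates 1 and 2 reached a replicate 3 library.

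The chosen windows were short and rich in CpGs. Their median length was 4018 bp against 5690 bp for all autosomal windows, which gave 13.3 CpGs per kb against 9.24. The comparison windows were shorter and denser still, with 3765 bp and 14.5 CpGs per kb. The GC content of the chosen windows was 47.3% in median, above the 43.2% of all autosomal windows, and repeats covered 23.5% of their bases against 25.4%. Among windows of like CpG density, taken as the middle 50% of the chosen windows, repeats turned the other way, with 24.1% in the chosen windows and 22.1% in all. CpGs between A or T on both sides and with no other CpG within 35 bp made up 9.43% of CpGs in the chosen windows, 7.84% in the comparison windows and 14.3% in all autosomal windows. At like CpG density most of this gap was gone, with 9.26%, 8.77% and 10%.

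The share of windows chosen fell along the range of lengths. It was 0.904% in the decile of shortest windows (252 to 3017 bp), 0.354% in the fifth decile and 0.119% in the decile of longest windows. The comparison windows followed the same course, with 1.68% in the shortest and 0.278% in the longest decile, so shortness was shared by windows that deviated in opposite directions. By CpG density, 0.0530% of windows with fewer than 5 CpGs per kb were chosen, 0.670% of those with 10 to 20 and 1.17% of those with 20 to 40. Above 40 CpGs per kb, where CpG islands lie, 6 of 5758 windows (0.104%) were chosen and the median excess was 0 in both phases.

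Replicates 1 and 2, whose difference the rule did not use, also lay farther apart in the chosen windows. Their median absolute difference was 8.30 percentage points in G1 and 7.29 in G2/M, against 6.66 and 5.88 in all autosomal windows. Among the 110007 autosomal windows within the middle 50% of the chosen windows' CpG density, it was 7.40 and 6.51, against 8.47 and 7.34 in the 699 chosen windows of that range. In the comparison windows of that range it was 8.07 and 7.78. These windows were not matched on their level, the mean of replicates 1 and 2 over both phases. At a level of 50 to 60% the chosen windows had 8.14 against 7.11 in G1 and 7.36 against 6.14 in G2/M. At 30 to 40% the gap was small, with 8.48 against 8.24 and 7.24 against 7.18. At 20 to 30% it turned in G1, with 6.50 against 7.69, but not in G2/M, with 7.74 against 6.84. Windows are not replicates, so no test was made of these differences.

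**Figure D4:**
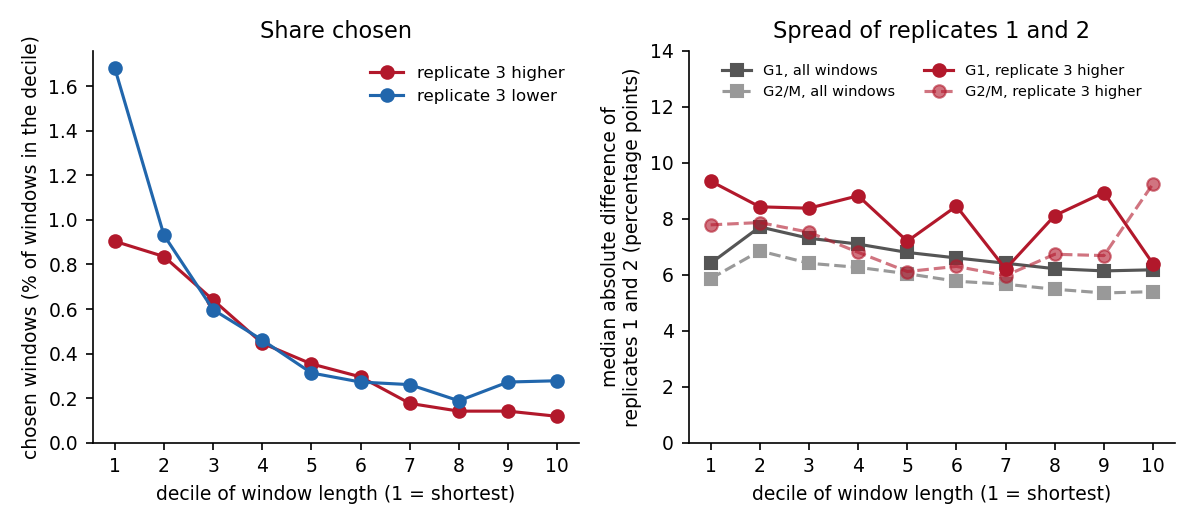
Left, percentage of autosomal windows in each decile of window length (x axis, 1 = shortest) that were chosen as higher (red) or lower (blue) in replicate 3. Right, median absolute difference of replicates 1 and 2 (y axis, percentage points) for all windows (grey) and chosen windows (red), in G1 (solid) and G2/M (dashed); the share chosen falls from 0.904% to 0.119%, and the red points lie above the grey ones of their phase in every decile except the seventh in G1.

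Chosen windows were most frequent at an intermediate level of methylation. By the mean of replicates 1 and 2 over both phases, 1.71% of windows at 30 to 40% were chosen and 1.55% of those at 40 to 50%. Only 0.244% of windows at 60 to 70% were chosen, although 133930 of the 344780 windows lie there, and 0 of the 6347 windows above 80%, where an excess of 20 percentage points has no room. The comparison windows were most frequent at 20 to 30%, with 2.44%. The rule used these same values, so this course is a description of it.

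By position, 47.5% of the chosen windows had their centre in an intron, 32.5% in intergenic sequence, 7.00% near a transcript's end, 6.93% in an exon and 6.08% at a promoter. The corresponding values for all autosomal windows were 44.1%, 41.9%, 4.88%, 4.14% and 4.93%. Among windows of like CpG density the gap in intergenic sequence was smaller, with 31.2% of the chosen and 33.5% of all windows, and the share in introns turned, with 50.1% of the chosen and 50.8% of all windows. The comparison windows of that density stood at 40.1% in intergenic sequence and 41.5% in introns. The centre lay at a promoter in 4.72% of the chosen windows of that density, 4.43% of all windows and 4.91% of the comparison windows. By any overlap in place of the centre, a promoter of a protein-coding transcript met 12.7% of the chosen windows of that density. This was 9.71% of all windows and 22.2% of the comparison windows.

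Beyond the edge of the window the median excess was near that of all autosomal windows. Neighbours that were themselves chosen or comparison windows were left out of these medians. In median over the neighbours on the left and right, replicate 3 exceeded replicates 1 and 2 by 7.92 and 8.29 percentage points in G1 and by 8.26 and 7.48 in G2/M, close to the autosomal medians of 7.24 and 7.56. From 2 to 10 windows away, the medians lay between 6.92 and 8.0 in G1 and between 7.07 and 7.92 in G2/M. Neighbours of comparison windows stood between 6.15 and 6.61 percentage points, slightly below the autosomal medians. A chosen window was next to another chosen window in 34 cases (2.43%), while 0.807% of all autosomal windows were next to a chosen one.

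**Figure D5:**
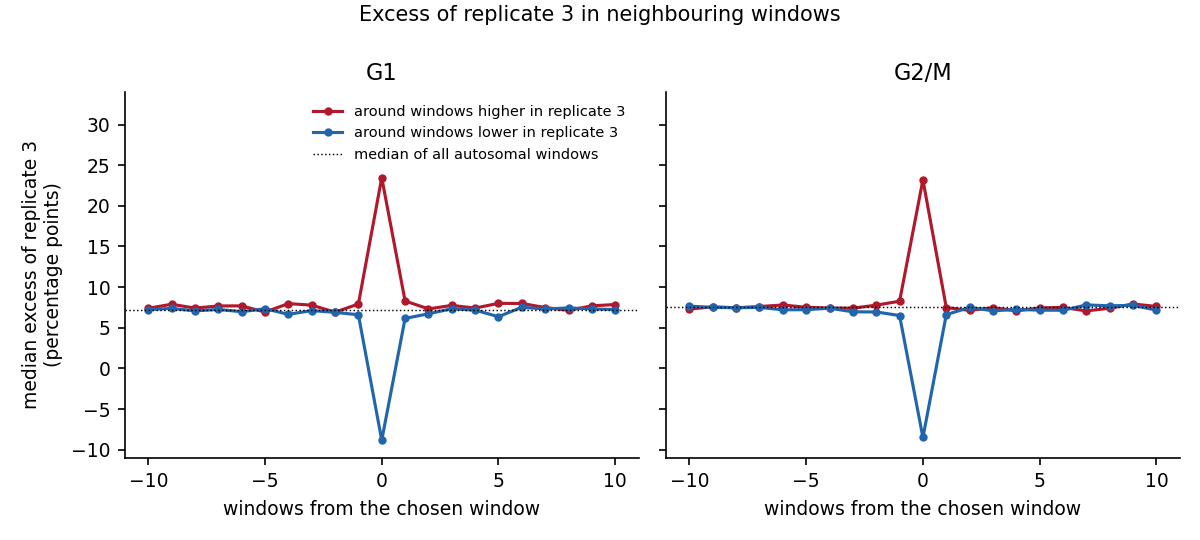
Median excess of replicate 3 (y axis, percentage points) in windows up to 10 to the left and right (x axis) of windows higher (red) and lower (blue) in replicate 3, in G1 (left) and G2/M (right); the dotted line is the median of all autosomal windows. The value at 0 was fixed by the rule. Neighbours that were themselves chosen or comparison windows were left out, and the next windows already lie between 6.15 and 8.29 percentage points.

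The 34 adjacent windows formed 17 pairs, and no run was longer. The first pair lies on chromosome 1 from 184712984 to 184718548 within 4930488B22Rik, a long intergenic RNA gene near the homeobox gene Hlx. Its first window was at 61.2%, 61.2% and 82.0% in G1 and at 61.7%, 54.2% and 81.7% in G2/M. Its second was at 46.0%, 22.8% and 55.1% in G1 and at 33.3%, 26.4% and 64.3% in G2/M. Further pairs lay in an intron of Vsx1, a homeobox gene of the eye, and 71174 bp from Zfp64. The first of the pair near Zfp64 was at 50.7%, 83.8% and 93.4% in G1, so replicate 2 came within 10 percentage points of replicate 3 there.

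Along the chromosomes the windows were scattered. Of 2343 bins of 1 Mb with at least 50 windows, 1504 held none, 517 held 1 and 322 held 2 or more. The bins with the largest share were on chromosome 17 at 27 Mb (3 of 90 windows), chromosome 14 at 24 Mb (5 of 151) and chromosome 5 at 113 Mb (9 of 273). The share by chromosome ran from 0.262% on chromosome 13 to 0.553% on chromosome 11. Among 4509 protein-coding genes of at least 10 windows, 4047 held none, 406 held 1, 45 held 2 and 11 held 3 or more.

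Abcb9, which encodes a lysosomal peptide transporter, held the largest share, with 3 of its 12 windows. Its windows had a median excess of 14.4 percentage points in G1 and 9.31 in G2/M. It was followed by Slc5a10, a sugar transporter gene, with 2 of 10 and by Cmklr1, the chemerin receptor gene, with 2 of 11. Tnrc6a, a gene of RNA silencing, held 2 of 12 and Zcchc24 2 of 13. None of these 5 genes held a comparison window, but those were only 0.526% of all autosomal windows, so their absence from so few windows says little.

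Of 15588 protein-coding genes whose start lay in a window, 80 (0.513%) had it in a chosen window and 254 (1.63%) in a comparison window. Some starts share a window, so these lay in 76 chosen and 240 comparison windows. A few windows are long, such as those with the starts of Ergic2 (240344 bp) and of the listed Pou5f1 (188569 bp). The value of such a window is not that of the start alone. None of the 80 was among the listed pluripotency factors (17 with a window), primed and lineage factors (6), germline genes (19), imprinted genes (21), genes that write, read or erase methylation (12) or genes of the two-cell state (13). With 0.513% of all coding starts chosen, absence from lists this short says little. Only 2 of the listed genes, the paternally expressed Peg3 and Usp29, lay in a comparison window, and they share it.

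The Peg3 and Usp29 window, on chromosome 7 from 6729743 to 6730844, lies at the bidirectional promoter of these imprinted genes, where the maternal allele is normally methylated and the paternal one is not. It was at 48.5%, 49.3% and 25% in G1 and at 22%, 20.7% and 0% in G2/M. Replicate 3 was lowest in each phase, and every replicate was lower in G2/M than in G1. In the limma fit over all windows the difference of G1 and G2/M on the log2 ratio scale was 2.88 (SE 1.17), with an unadjusted p of 0.0357 and an adjusted p of 1. In the fit blocked on replicate number the unadjusted p was 0.00618 and the adjusted p 0.894.

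By gene family, 3 of 1027 olfactory receptor starts (0.292%, against 0.513% of all protein-coding starts) lay in chosen windows. They were Olfr418, at 55.9%, 57.4% and 77.8% in G1, Olfr1095, at 27.8%, 30.1% and 76.0%, and Olfr32, at 64.9%, 54.9% and 89.3%. Of 23 Hox gene starts 1 was in a chosen window, that of Hoxb3, a homeobox gene of the body axis. The Hoxb3 window was at 36.9%, 46.4% and 62.0% in G1 and at 60.6%, 57.8% and 81.0% in G2/M, so that every replicate was higher in G2/M. No start of a vomeronasal receptor (289), a zinc-finger protein named Zfp (311) or a defensin (59) lay in a chosen window. At the share of 0.513% over all coding starts, these absences and the single Hox start say little. In comparison windows lay 8 Zfp starts (2.57%, against 1.63% of all protein-coding starts). These were Zfp2, Zfp60, Zfp61, Zfp110, Zfp235, Zfp574, Zfp930 and Zfp971. The starts of the defensin genes Defa3 and Defa5 (3.39% of the 59) also lay in a comparison window, which they share.

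At 2 of the 3 windows with the largest deficit, replicates 1 and 2 themselves lay far apart in G1. The window at Rarres1, a gene that responds to retinoic acid, was at 68.9%, 16.7% and 14.7% in G1 and at 49.3%, 41.9% and 21.1% in G2/M. The intergenic window on chromosome 12 from 23789538 to 23800403 was at 47.3%, 74.6% and 32.1% in G1 and at 67.4%, 55.0% and 37.6% in G2/M. The window in an intron of Chit1, a chitinase gene, was at 69.4%, 72.0% and 48.4% in G1 and at 68.1%, 60.7% and 42.3% in G2/M. At Rarres1 in G1 the deficit of replicate 3 rests on replicate 1 alone.

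The phases themselves differed little in the chosen windows. The median difference of G1 and G2/M was -0.63, -1.27 and -0.41 percentage points in replicates 1, 2 and 3, against 1.27, 0.641 and 0.684 in all autosomal windows. Among windows of like CpG density the mean over replicates was -0.765 in the chosen windows, 0.357 in all windows and 0.946 in the comparison windows. G2/M was higher in all 3 same-numbered pairs in 296 of the 1399 windows (21.2%), against 9.74% of all windows of the table, and G1 was higher in all 3 in 201 (14.4%), against 16.3%. The rule asked for an excess of at least 20 percentage points in both phases. The excess in G1 differed from that in G2/M by 3.05 percentage points in median, against 6.90 over all autosomal windows. The choice thus holds the phase difference of pair 3 close to the mean of pairs 1 and 2. It does not tie pairs 1 and 2 to each other.

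In the limma fit of G1 against G2/M over all 359192 windows, none of the 1399 windows passed an adjusted p of 0.05 in either direction, and none had an unadjusted p under 0.05. Among all windows 0.00111% of windows passed with G1 higher and 0.00111% with G2/M higher, and 1.36% and 0.75% had an unadjusted p under 0.05. In this fit the excess of replicate 3 counts as spread within each phase, so the rule itself widens the error of every chosen window. The smallest p among them was in the window at the start of Lpcat4, a lysophospholipid acyltransferase gene, which was at 57.8%, 42.0% and 78.8% in G1 and at 27.2%, 29.1% and 54.2% in G2/M. Its difference was 1.41 (SE 0.65) on the log2 ratio scale, with an unadjusted p of 0.0582 and an adjusted p of 1.

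In the fit blocked on replicate number no window passed an adjusted p of 0.05 either. An unadjusted p under 0.05 was reached by 30 chosen windows with G1 higher (2.14%, against 3.09% of all windows) and by 72 with G2/M higher (5.15%, against 1.74%). In the comparison windows the shares were 6.78% and 3.14%. The smallest p was in a window on chromosome 17 from 6618271 to 6622198 within the pseudogene Tmem181c-ps, which was at 44.4%, 51.3% and 78.1% in G1 and at 61.2%, 78.4% and 90.6% in G2/M, with a difference of -1.35 (SE 0.27), an unadjusted p of 0.00227 and an adjusted p of 0.894. Since the rule holds pair 3 close to the mean of pairs 1 and 2, it also narrows the residual spread of the chosen windows in this fit. These counts are given as a description.

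Replicates 1 and 2 were also compared with each other. The rule did not use this difference, but the fit takes its spread from the same residuals as the blocked fit, which the rule narrows for the chosen windows, so its p-values and counts are given as a description only. No chosen window passed an adjusted p of 0.05, and neither did any other window of the table. An unadjusted p under 0.05 was reached by 72 chosen windows with replicate 1 higher (5.15%, against 3.89% of all windows) and by 33 with replicate 2 higher (2.36%, against 1.23%). The shares in the comparison windows were 5.63% and 4.41%. The smallest p was in a window near the end of Tmem44, which was at 64.4%, 35.3% and 75.7% in G1 and at 61.7%, 33.0% and 75% in G2/M, with a difference of 1.69 (SE 0.33), an unadjusted p of 0.00215 and an adjusted p of 0.862. At this window all 3 replicates kept their level from G1 to G2/M, with replicate 2 apart from the other two. Over all chosen windows, replicates 1 and 2 differed in the same direction in both phases in 50.3%, against 51.9% of all autosomal windows.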

How the data were processed

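Per the submitters' processing notes and the methods, the authors trimmed EM-seq reads (Trim Galore 0.6.4), aligned them with Bismark 0.22.1 and Bowtie2 to GRCm38, removed duplicates and quantified windows of 100 CpG cytosines. The deposited values are the percent of methylated CpG calls per window and library, with no counts or coverage, so depth is unknown and precision rests on the 3 replicates of each phase. The study states biological triplicates for these libraries, and p-values of the unblocked phase fit measure the spread between them. In the blocked fit and the replicate comparison the replicate effect is removed. Their p-values measure the spread that remains after replicate and phase are fitted. The replicate comparison thus treats same-numbered libraries of different phases as repeats of that number.

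Columns were mapped to libraries by their names, the rule was applied on chromosomes 1 to 19, and windows were annotated with GENCODE vM21 and the RefSeq GRCm38 genome. A window was assigned by its centre, in the order promoter, transcript end (100 bp before to 1000 bp after), exon, intron and intergenic. The members, gene lists and tests were chosen with earlier results of these data known. Since the percentages carry no counts, log2((percent + 1)/(100 - percent + 1)) was fitted in limma 3.58.1 (R 4.3.3; lmFit, eBayes with trend) over all 359192 windows, with Benjamini-Hochberg adjustment and a threshold of 0.05, for G1 against G2/M in all 6 libraries and for replicate 1 against 2 with phase as a covariate. On simulated data, of 200 changed windows among 359192 the phase fit recovered 0, 1 and 62 at log2 changes of 1, 2 and 4, with 0, 0 and 2 false calls, and the replicate fit 0, 0 and 2.

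Named windows were, by the smaller excess in the 2 phases, the 5 largest, 3 on each side of the threshold, 5 at promoters of protein-coding genes, 3 runs, 3 largest deficits, the 5 genes and 3 bins of largest share, every listed gene whose start lay in a member or comparison window, and the smallest p of each fit. Alternatives were other thresholds, libraries centred on their medians, an excess over each replicate, windows listed at 0% left out, the percent scale, an offset of 5, no trend, a filter on the mean, the replicate block and each library left out.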

Additional observations from a re-analysis of the deposited data

How the results depend on the processing

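The number of chosen windows depended on the rule's settings. It was 10219 at a threshold of 15 percentage points, 194 at 25, 60 with each library centred on its median and 343 where replicate 3 had to exceed each of the others by the threshold. With 1 of the libraries of replicates 1 and 2 left out it ran from 1774 to 2383, with the most when G1 replicate 1 was left out, and 2310 when replicate 1 of G2/M was. Comparison windows numbered 32931 with centred libraries, 421 where replicate 3 had to be lower than each, 3932 at 3 percentage points and 283 at 10. Without 1 library they numbered 2157 to 2714.

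The share of members next to a member was 0% with centred libraries, 8.41% at 15, 0% at 25 and 1.17% with each replicate exceeded. The share in intergenic sequence was 35.5% at 15, 29.9% at 25 and 37.0% with each replicate exceeded, and that at a promoter 10.0% with centred libraries, 4.79% at 15, 7.73% at 25 and 28.1% by any overlap in place of the centre. The median density was 17.1 CpGs per kb with centred libraries, 11.1 at 15, 16.4 at 25 and 13.9 with each replicate exceeded, above the 9.24 of all autosomal windows under each of these settings. Leaving out windows listed at 0% moved none of these values beyond their counting error.

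The median difference of G1 and G2/M in members was -0.73 percentage points, -1.80 with centred libraries, and -0.99 to -0.32 with 1 same-numbered pair left out. No member passed an adjusted p of 0.05 in either fit under any of the alternatives run. Members with an unadjusted p under 0.05 for G1 against G2/M numbered 0 with G1 higher and 0 with G2/M higher, and 12 and 43 with centred libraries, 18 and 31 with the filter on the mean, 2 and 0 on the percent scale, 30 and 72 with the replicate block and 30 and 63 with the block on the percent scale. With 1 library left out they ran from 0 to 13 and from 0 to 37. Without G2/M replicate 3 there were 13 and 0, and without G1 replicate 3 there were 0 and 37. With 1 replicate 3 library gone, the excess that chose the windows stays in the other phase only. The rule thus sets the direction of these last counts, which say nothing about the phases.

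For replicate 1 against 2 such members numbered 72 and 33, 37 and 61 with centred libraries, which turned the direction of the majority, and 29 to 54 and 18 to 27 with 1 library left out, the lowest without G1 replicate 1 (29 and 20) and without G1 replicate 2 (34 and 18). Deviations of same-numbered libraries from their phase's mean correlated across windows with r of 0.0274, 0.0310 and 0.0549. For other pairs r was -0.0299 to -0.00144. Each library thus correlated best with its own number, but no pair passed 0.1. Each library's mean was removed first, which takes out the shift shared by both replicate 3 libraries. These values thus cannot decide whether the numbers pair the samples, and the study calls its replicates matched. The unblocked fit did not pair the samples by number, and the blocked fit did. Apart from the direction that the rule sets without a replicate 3 library, the cause of the changes between settings was not tested. The precision is limited by 3 libraries a phase and by a coverage that is unknown.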

Other observations

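On the sex chromosomes the same rule found 91 of 13442 windows of chromosome X (0.677%) and 10 of 970 of chromosome Y (1.03%). There 132 (0.982%) and 23 (2.37%) windows were lower in replicate 3. The autosomal shares were 0.406% higher and 0.526% lower, so both directions were more frequent on chromosomes X and Y. The median excess was 7.01 percentage points in G1 and 7.49 in G2/M on chromosome X, and 6.16 and 6.35 on chromosome Y. E14TG2a cells have a single copy of each of these chromosomes.

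At the starts of germline genes, many of which are kept silent by promoter methylation, replicate 3 exceeded replicates 1 and 2 by 8.87 percentage points in G1 and 10.7 in G2/M in median over 19 genes, and it was higher in both phases at 10 of them, a share close to that of all protein-coding gene starts, 7796 of 15588. At the starts of genes of the two-cell state the median excess was 9.99 and 10.0 over 13 genes, with 11 higher in both phases. At the starts of all 15588 protein-coding genes it was 3.95 and 4.32. At imprinted genes the medians were 1.04 and 2.20 over 21 genes, at pluripotency factors 4.39 and 2.27 over 17 genes and at primed and lineage factors 1.93 and 2.28 over 6. At genes that write, read or erase methylation they were 0 and 4.43 over 12 genes, 2 of them higher in both phases. The lists also differed in level. In replicates 1 and 2 the median level was 65.7% at two-cell genes, 50.75% at germline genes and 43.8% at all coding starts. Over all autosomal windows the median excess was 8.23 in G1 and 8.52 in G2/M at a level of 60 to 70%. At 50 to 60% it was 8.51 and 8.60. Several two-cell genes belong to families of near-identical copies. The study discarded reads of low mapping quality, so the coverage there, which is unknown, may be thin.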
